A study of Micropterus salmoides with 68 samples.

Results

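Before any transport, gene expression was compared between 2 organs, liver and spleen, of a farmed freshwater fish, the largemouth bass (Micropterus salmoides). The comparison used all 8 libraries labelled as taken before transport, 4 of liver and 4 of spleen, out of 68 libraries in the series. It covered the 17530 of 18666 genes that reached 1 TPM (transcripts per 1000000) in at least 3 of the 8 libraries. It shows which genes set the organs apart at the start of the study. The 7877 tested genes without a gene symbol enter the counts over all genes but are not described singly. The other 60 libraries, 30 of each organ, come from fish sampled at the end of a 4 h transport by car or during recovery.

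The fish were fingerlings of 11.99 ± 4.34 g (as stated in the labels) from a pond where they were fed to satiation 2 times a day, and they were euthanized with MS-222 directly after netting. The labels name no genetic change and no treatment of these fish, and give no strain, sex or age. They do not say whether liver 1 and spleen 1, and so on, came from the same fish. P-values therefore measure only the spread between these samples of 1 stock.

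The fish liver is built mainly of hepatocytes. These make most plasma proteins and lipoproteins, release and store glucose, break down amino acids and form bile. The spleen of bony fish holds blood in a bed of vessels, smooth muscle and reticular cells, clears old red cells through macrophages, and houses lymphocytes and thrombocytes. In many bony fishes pancreatic tissue lies beside or inside liver and spleen.

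The organs differed in how evenly RNA was spread over genes. The livers had 11845, 12166, 13872 and 14472 genes at 1 TPM or more, and the spleens had 16790, 16396, 16543 and 16535. No liver reached the lowest spleen (exact permutation test, two-sided, p = 0.0286, the smallest that 4 against 4 allows, adjusted p = 0.0685 over 6 library summaries). The 10 most abundant genes took 21.88% to 29.98% of TPM in liver and 13.77% to 22.90% in spleen (exact p = 0.0571, adjusted p = 0.0685). TPM are shares of a fixed total, so that a rise in some genes lowers the values of all others. The median log2 difference of all genes, liver minus spleen, was -1.19 as deposited and -0.06 after median-of-ratios rescaling. On the deposited values limma called 74.4% of genes at an adjusted p under 0.05, with 1798 higher in liver (10.3%) and 11247 higher in spleen (64.2%). After rescaling the split was 4582 (26.1%) to 5232 (29.8%). Directions below are therefore given as calls only where both scales passed with the same sign. That held for 1798 genes higher in liver (10.3%) and 5232 higher in spleen (29.8%), and these shares are the background for every list. The 1798 equal the liver calls as deposited and the 5232 the spleen calls after rescaling, so 1 scale alone decided each direction. A further 263 genes were called for 1 organ as deposited and for the other after rescaling. Log2 differences and adjusted p-values below are as deposited unless stated otherwise, and the shift of the median enters them. Bulk RNA cannot tell fewer cells of a type from less RNA per cell, and this holds for each difference between the organs.

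**Figure D1:**
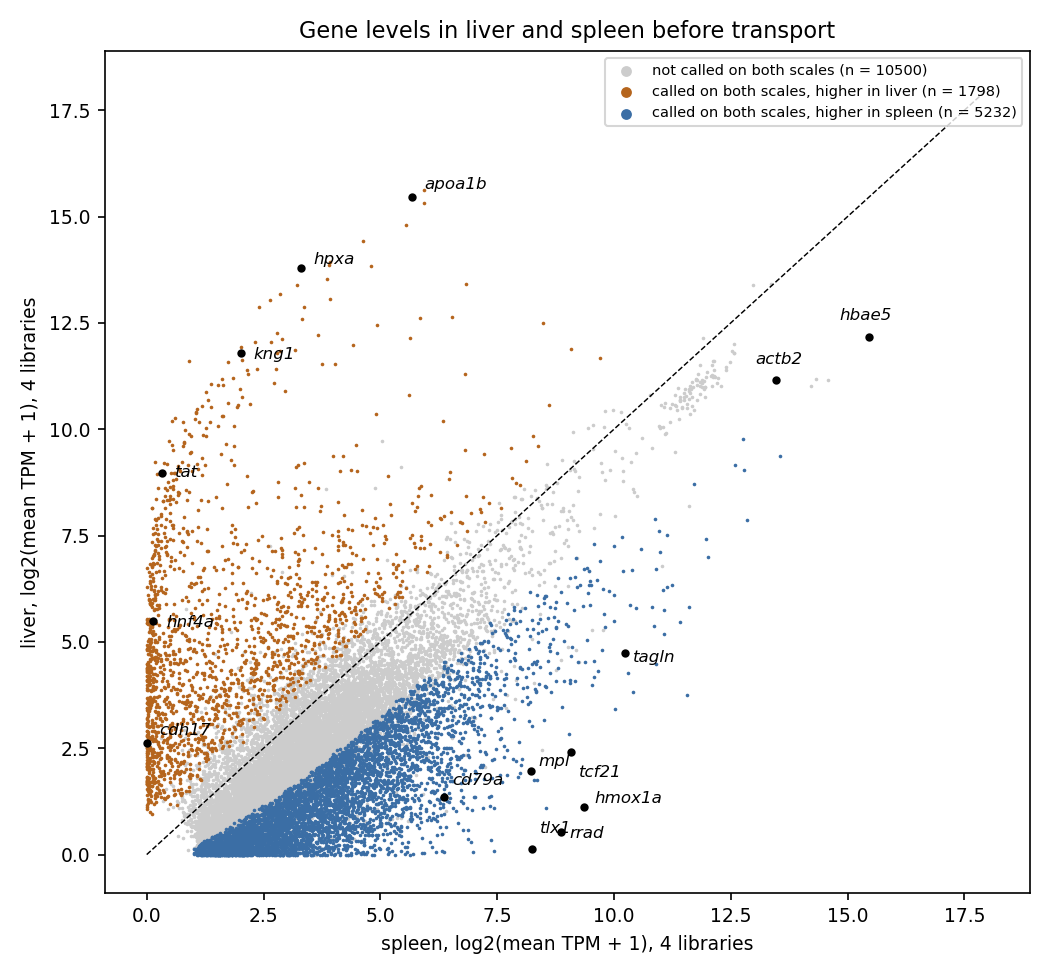
Mean level of each tested gene in 4 spleens (x axis) and 4 livers (y axis), both as log2(mean TPM + 1), with the line of equal levels dashed. Orange and blue points passed on both scales (1798 and 5232 genes), black points carry their gene's symbol, and the other 10500 genes are grey.

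Liver 4 stood apart from livers 1 to 3. Pearson r of log2(TPM + 1) over all genes was 0.854 to 0.966 between livers, 0.935 to 0.954 between spleens and 0.458 to 0.551 between organs. The first principal component held 81.4% of the variance and separated the organs, and the second held 10.5% and set liver 4 apart. Summed TPM of 75 ribosomal protein genes was 71849 in liver 4 against 163640 to 172813 in the other livers. Long noncoding genes held 1.40% of TPM in liver 4 and 5.83% to 6.67% in the others. Calls on both scales without liver 4 numbered 1881 in liver and 5957 in spleen, and list counts without it are given where they differ.

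Genes of the secreted liver proteins carried the largest differences. Of 18 plasma carriers and other secreted proteins, 17 were called higher in liver and none in spleen, with a median log2 difference of 8.35 against -1.19 for all genes. The exception was igfbp2a, which binds insulin-like growth factors, at 112.6 TPM in liver and 160.8 TPM in spleen (adjusted p = 0.0746, and 0.0132 without liver 4). Hemopexin (hpxa), which binds free haem in plasma, had the largest difference. It stood at 16600, 12808, 12916 and 14336 TPM in the livers and at 13.2, 10.2, 4.63 and 7.56 TPM in the spleens. The log2 difference was 10.56 (SE 0.30, adjusted p = 2.09e-08). Transferrin (tfa), the plasma iron carrier, was at 11534, 13638, 9006 and 28145 TPM in liver and 24.4, 19.4, 6.31 and 6.38 TPM in spleen. All 4 livers lay above all 4 spleens for both genes, as they did for 1757 tested genes (the spleens lay above all livers for 9654, or 55.1%), and liver 4 held the highest transferrin value.

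The fetuin genes fetub and ahsg2, whose products circulate as protease inhibitors and mineral carriers, differed by 10.49 (SE 0.37) and 10.37 (SE 0.29) on the log2 scale. Kininogen (kng1), the precursor of kinin peptides, was at 3555 ± 256 TPM in liver (SD, n = 4) and 3.06 ± 1.30 TPM in spleen. The growth factor gene igf1 and its plasma partner igfals had means of 137.5 and 325.5 TPM in liver against 3.07 and 0.14 TPM in spleen.

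The highest mean levels in liver among genes with a symbol belonged to apoa2 and apoa1b, genes of high-density lipoprotein. Of 15 apolipoprotein and lipoprotein genes, 14 were called higher in liver and 1 in spleen (median log2 difference 8.22). Apoa1b was at 45976, 46759, 35910 and 51477 TPM in liver and 68.9, 67.0, 30.0 and 35.5 TPM in spleen. Its partner apoa2 was at 59323, 57710, 53508 and 30494 TPM in liver and at 81.2, 72.2, 34.1 and 51.7 TPM in spleen. Apolipoprotein B (apobb.1), the very large scaffold protein of low-density lipoprotein, was at 710, 778 and 1315 TPM in livers 1 to 3 and at 9672 TPM in liver 4. No spleen exceeded 1.35 TPM, so the organs did not overlap although the livers themselves spanned a wide range. The single gene called the other way was ldlrb, 1 of a pair of low-density lipoprotein receptor genes that is taken up with the paralogues.

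Most clotting and complement genes were higher in liver, and 1 gene of each list was called for spleen. Of 15 coagulation and fibrinolysis genes, 14 were higher in liver (median log2 difference 7.32). Prothrombin (f2) was at 2449 to 6196 TPM in liver and 1.35 to 4.66 TPM in spleen, and fibrinogen beta (fgb) at 5954 to 10316 TPM and 3.05 to 15.5 TPM. The exception was proza, named for protein Z, at 8.22, 4.69, 12.5 and 15.8 TPM in liver and 59.2, 45.5, 51.8 and 61.1 TPM in spleen (log2 difference -2.40, SE 0.34, adjusted p = 0.000169). Of 11 complement genes, 9 were higher in liver and 1 in spleen. The terminal components c8b and c9, which form the membrane pore, differed by 9.10 and 8.69. Complement factor D (cfd), the serine protease that starts the alternative pathway, went the other way. It was at 185, 242, 921 and 318 TPM in liver and 3579, 3145, 3516 and 3264 TPM in spleen (log2 difference -3.31, SE 0.44, adjusted p = 0.000116). The spleens lay close together for this gene and the livers were spread.

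**Figure D2:**
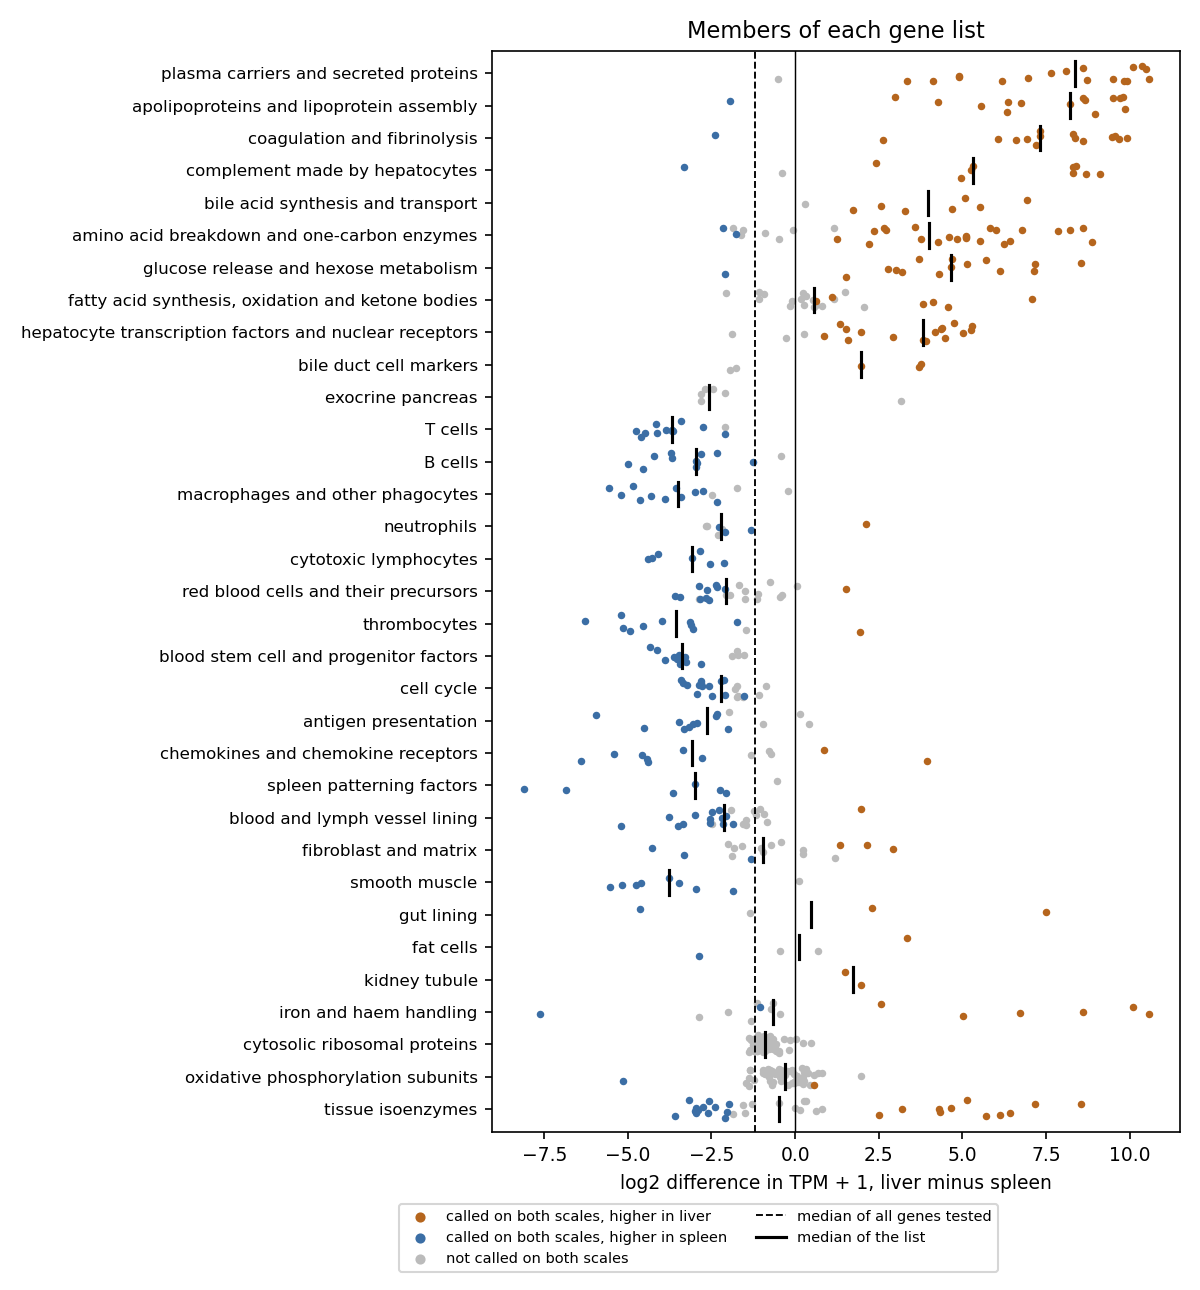
Log2 difference of TPM + 1, liver minus spleen, for every tested member of each gene list (1 point per gene, spread vertically for visibility), with the list's median as a short bar. Orange and blue mark members called on both scales, the solid line is 0 and the dashed line the median of all tested genes at -1.19, so that plasma protein lists lie far to the right and blood cell lists to the left.

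Genes that regulate hepatocyte identity were called higher in liver for 16 of 19 members (median log2 difference 3.83). Nuclear receptor hnf4a, a central regulator of liver genes, was at 38.1, 36.1, 32.8 and 69.4 TPM in liver and 0.21, 0.08, 0.07 and 0.06 TPM in spleen (log2 difference 5.29, SE 0.28, adjusted p = 4.10e-07). The forkhead factors foxa2 and foxa3 and the bile acid receptor nr1h4 differed by 4.47, 5.24 and 4.35. In the spleens none of these reached 0.5 TPM. Smaller differences were seen for cebpa (1.35) and gata6 (1.58), which were also present in spleen at 21.8 and 13.9 TPM. For nr1i2, the xenobiotic receptor, the difference of 0.86 lost its call without spleen 2 (adjusted p = 0.0591) and without spleen 4 (0.0647).

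Members of that list which were not called on both scales were nr1h3, hhex and pparab. The oxysterol receptor nr1h3 reached at most 47.1 TPM in liver and was at 73.8 to 99.2 TPM in spleen. It was called higher in spleen as deposited (log2 difference -1.88, adjusted p = 0.000744), not after rescaling (-0.38, adjusted p = 0.0827), and was the 1 member called for spleen on both scales without liver 4. The homeobox gene hhex, which acts in both liver and blood development, was at 14.5 ± 3.56 TPM in liver and 17.3 ± 2.19 TPM in spleen (SD, n = 4, limma adjusted p = 0.338). Without liver 4 it passed for spleen as deposited (adjusted p = 0.0444). The fatty acid receptor pparab ranged from 1.39 to 17.5 TPM across the livers (adjusted p = 0.693).

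Metabolic lists split by pathway. Of 32 genes for amino acid breakdown and one-carbon metabolism, 23 were called higher in liver and 2 in spleen (median log2 difference 4.01). Tyrosine aminotransferase (tat), the first step of tyrosine breakdown, was at 419, 448, 419 and 721 TPM in liver and at most 0.52 TPM in spleen. Tryptophan dioxygenase (tdo2a) and the tyrosine enzyme hpda differed by 8.88 and 8.21. The 2 called higher in spleen were prodha, a proline oxidase, and cps1, the mitochondrial carbamoyl phosphate synthetase of the mammalian urea cycle. The latter was at 1.72, 1.83, 2.30 and 11.8 TPM in liver and 20.5, 15.1, 15.9 and 20.9 TPM in spleen (log2 difference -2.15, SE 0.48, adjusted p = 0.00262). Other urea cycle genes, otc, ass1 and asl, were at 23.9, 17.2 and 18.4 TPM in liver and 72.5, 53.1 and 34.4 TPM in spleen. These were called higher in spleen as deposited and not after rescaling, as was bhmt, a methionine-forming enzyme, at 6.20 and 23.8 TPM.

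Bile acid genes were called higher in liver for 7 of 8 members (median log2 difference 3.98). The canalicular bile salt pump abcb11b was at 95.3, 68.1, 98.0 and 476 TPM in liver and at most 0.18 TPM in spleen. Its liver 4 value was the highest, while the spleens stayed near 0. The bile acid efflux gene slc51a differed by 5.52 (SE 0.26). Genes of fatty acid synthesis, oxidation and ketone bodies had fewer calls, with 6 of 23 higher in liver and none in spleen (7 in liver without liver 4). Their median log2 difference was 0.57 as deposited. After rescaling it was 1.92, against -0.06 for all genes, while the calls for liver rest on the deposited scale. The liver fatty acid binding protein fabp10a, at 121 to 481 TPM in liver and 0.32 to 2.80 TPM in spleen, had the largest difference.

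Genes for glucose release and hexose use were higher in liver for 14 of 15 members (median log2 difference 4.66). Glucose-6-phosphatase (g6pc1a.1), which frees glucose for the blood, was at 153, 135, 168 and 206 TPM in liver and at most 0.42 TPM in spleen. The livers differed widely in glucokinase and phosphoenolpyruvate carboxykinase, which act in opposite directions of glucose metabolism. Glucokinase (gck) was at 268, 1.70, 57.6 and 74.1 TPM in livers 1 to 4, and pck1 at 4.82, 35.2, 18.8 and 120 TPM. Liver 1 thus held the highest gck and the lowest pck1, and liver 2 the lowest gck. Spleens had at most 1.44 and 0.98 TPM of them, and both genes were called higher in liver (log2 differences 4.66, SE 1.15, and 4.30, SE 0.76). The labels do not give the time since the last meal of each fish.

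Some isoenzymes, related genes for 1 reaction, divided between the organs. Of 35 tested, 11 were called higher in liver and 13 in spleen on both scales (14 in spleen without liver 4), and 11 were not called on both. Over all tested genes 10.3% were called for liver and 29.8% for spleen. Pyruvate kinase appeared as pklr in liver, at 88.0, 65.4, 68.9 and 155 TPM against 0.07 to 0.40 TPM in spleen. Its relative pkma was at 8.11, 8.62, 15.3 and 31.7 TPM in liver and 136, 132, 110 and 151 TPM in spleen. Neither gene overlapped between organs, and the log2 differences were 6.11 (SE 0.31) and -3.17 (SE 0.39). Glycogen phosphorylase showed the same division, with pygl at 37.0 to 210 TPM in liver and 4.35 to 10.8 TPM in spleen, and pygmb at 1.23 to 3.62 TPM in liver and 30.9 to 41.0 TPM in spleen.

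Methionine adenosyltransferase was represented by mat1a in liver (148 TPM against 0.83 in spleen) and mat2ab in spleen (59.4 TPM against 7.06 in liver). Glutaminase gave gls2b in liver (log2 difference 4.33) and glsa in spleen (-1.97). Among glucose transporters, slc2a2 was at 151 to 271 TPM in liver and 0.14 to 0.73 TPM in spleen, while slc2a1b and slc2a3b were higher in spleen by 2.40 and 2.76. Aminolevulinate synthase, which begins haem synthesis, gave alas1 in liver (132 TPM against 21.4) and its red cell form alas2 in spleen (207 TPM against 34.8). Lactate dehydrogenase ldha, which forms lactate in many tissues, was at 10.2, 10.2, 18.1 and 30.2 TPM in liver and 135, 110, 106 and 178 TPM in spleen (log2 difference -2.98, SE 0.36).

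**Figure D3:**
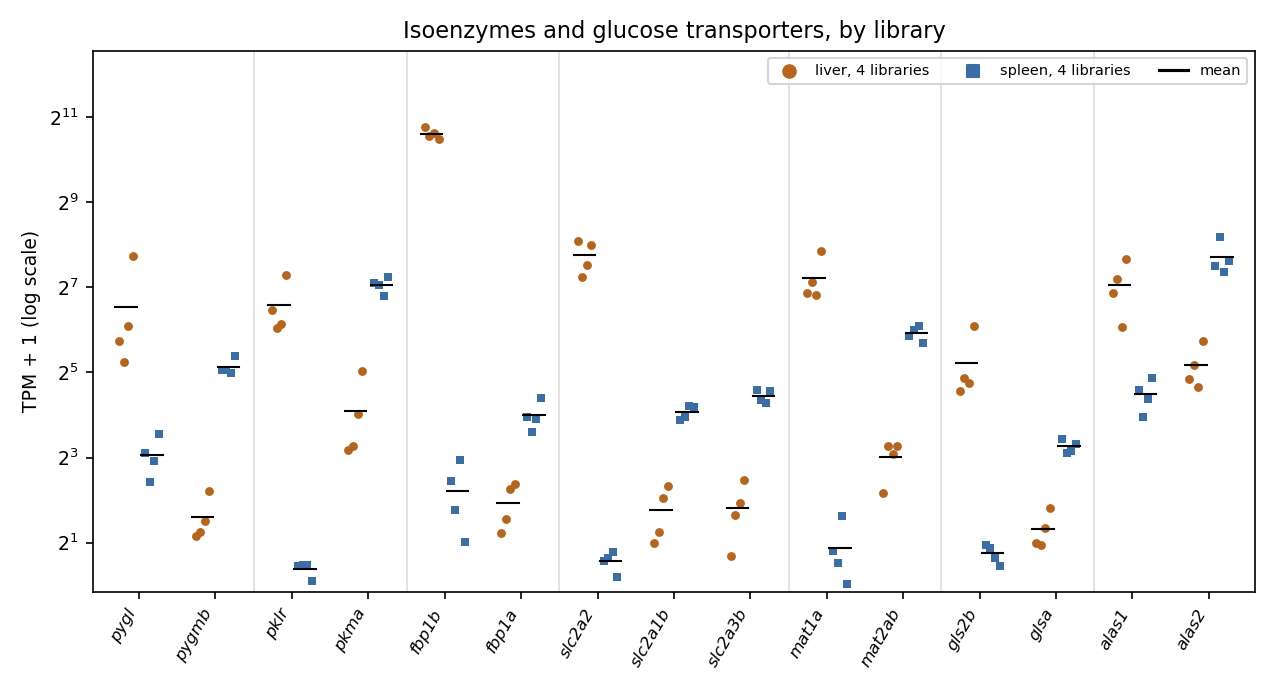
TPM + 1 on a log scale for 15 isoenzyme and transporter genes in each of 4 livers (circles) and 4 spleens (squares), with the mean as a bar and grey lines between groups of related genes. Within each group the first gene is higher in liver and the others higher in spleen, with no overlap of the libraries.

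Paralogues, here gene copies told apart by the letters a and b, were compared next. Of 573 pairs with both copies tested, 20 had copies called for opposite organs on both scales. In 19 both copies were higher in liver, in 72 both in spleen, and in 462 fewer than 2 copies were called. Of all tested genes 10.3% were called for liver and 29.8% for spleen, and no expected number of pairs was computed. As deposited, 49 pairs were opposite and 261 had both copies higher in spleen. The pairs described here were picked from opposite pairs by the size of the gap between copies. Fructose bisphosphatase, an enzyme of glucose synthesis, had fbp1b at 1724, 1506, 1563 and 1426 TPM in liver and 1.04 to 6.74 TPM in spleen. Its copy fbp1a was at 1.36, 1.94, 3.82 and 4.23 TPM in liver and 14.4, 11.1, 13.9 and 20.1 TPM in spleen. The purine nucleoside phosphorylase genes pnp5a and pnp5b had log2 differences of 7.77 and -3.01. Glyoxylate reductase had grhprb at 498 ± 57.5 TPM in liver and 0.52 ± 0.33 TPM in spleen, and grhpra at 3.95 ± 1.03 and 20.4 ± 3.02 TPM (SD, n = 4). For the low-density lipoprotein receptor, ldlra was at 253, 214, 325 and 1220 TPM in liver and ldlrb at 6.36 to 9.30 TPM in spleen against 0.33 to 3.62 TPM in liver. Reads shared by near-identical copies may be split between them by the quantification, so values of close copies are uncertain.

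The transcription factor tlx1, which is required for spleen formation in mice, was nearly silent in liver. It was at 0.05, 0.10, 0.08 and 0.12 TPM in the livers and 337, 263, 291 and 316 TPM in the spleens (log2 difference -8.12, SE 0.20, adjusted p = 2.09e-08). Another factor of spleen development, tcf21, was at 3.58, 3.80, 8.56 and 1.26 TPM in liver and 644, 464, 595 and 454 TPM in spleen. Of 7 genes listed as spleen patterning factors 6 were called higher in spleen. The others called were wt1a, nr2f2, pbx1a and bcl6b, with log2 differences of -3.64, -3.01, -2.26 and -2.07. After rescaling bcl6b, whose role in spleen patterning was not checked, was at -0.67, and the median of the list went from -3.01 to -1.54. The copy wt1b was not called, at 3.57, 2.69, 16.1 and 19.4 TPM in liver and at most 14.9 TPM in spleen (adjusted p = 0.385). Livers 3 and 4 exceeded livers 1 and 2 for both wt1 copies and for nr2f2.

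Among genes with a symbol named by size, the largest difference towards spleen was that of rrad, a small GTP-binding protein gene, at 602, 386, 526 and 354 TPM against 0.26 to 0.81 TPM in liver (log2 difference -8.33, SE 0.26). The bone morphogenetic protein inhibitor grem1b was at 159 to 187 TPM in spleen and at most 0.19 TPM in liver. Midkine (mdkb), a growth factor, and csf1b, a ligand of the macrophage growth factor receptor, differed by -7.47 and -7.05. The chemokine cxcl12b, which retains blood cells in tissues, was at 170, 191, 132 and 193 TPM in spleen and 0.41 to 2.51 TPM in liver. Of 9 smooth muscle genes, 8 were called higher in spleen (median log2 difference -3.78), among them tagln at 1007 to 1611 TPM against 14.7 to 30.5 TPM. The pericyte receptor pdgfrb differed by -4.26, while of 17 fibroblast and matrix genes 3 were called for each organ (4 for spleen without liver 4). The fibronectin gene fn1b, made by hepatocytes for plasma, was among the 3 higher in liver, at 178, 122, 139 and 1479 TPM.

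The globin gene hbae5 was the most abundant in spleen with a gene symbol, at 35337, 71664, 41595 and 31026 TPM against 4901, 7352, 4166 and 2016 TPM in liver. The organs did not overlap, yet its call held as deposited (log2 difference -3.35, adjusted p = 7.83e-05) and not after rescaling (-1.81, adjusted p = 0.109). Of 23 red cell genes 10 were called higher in spleen and 1 in liver (13 in spleen without liver 4). The blood factor tal1 and the anion exchanger slc4a1a differed by -3.45 and -2.86. Haem oxygenase (hmox1a), which breaks down haem in macrophages that take up old red cells, was at 350, 1847, 205 and 223 TPM in spleen and 0.43 to 2.04 TPM in liver. Spleen 2 held the highest value not only of hmox1a and hbae5 but also of the lysosomal protease gene ctsl.1, at 531 TPM against 106 to 197 TPM in the other spleens.

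The member of the red cell list called higher in liver was tfr1a, a transferrin receptor, at 38.8, 53.3, 72.1 and 179 TPM in liver and 20.2 to 31.5 TPM in spleen. Within iron and haem handling, the iron sensor tfr2 was at 80.8 to 272 TPM in liver and at most 0.20 TPM in spleen. Genes of haem and iron carriers (hpxa, hpxb and tfa) were higher in liver and hmox1a in spleen. Of 15 genes in the list, 6 were called for liver and 2 for spleen (3 without liver 4).

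**Figure D4:**
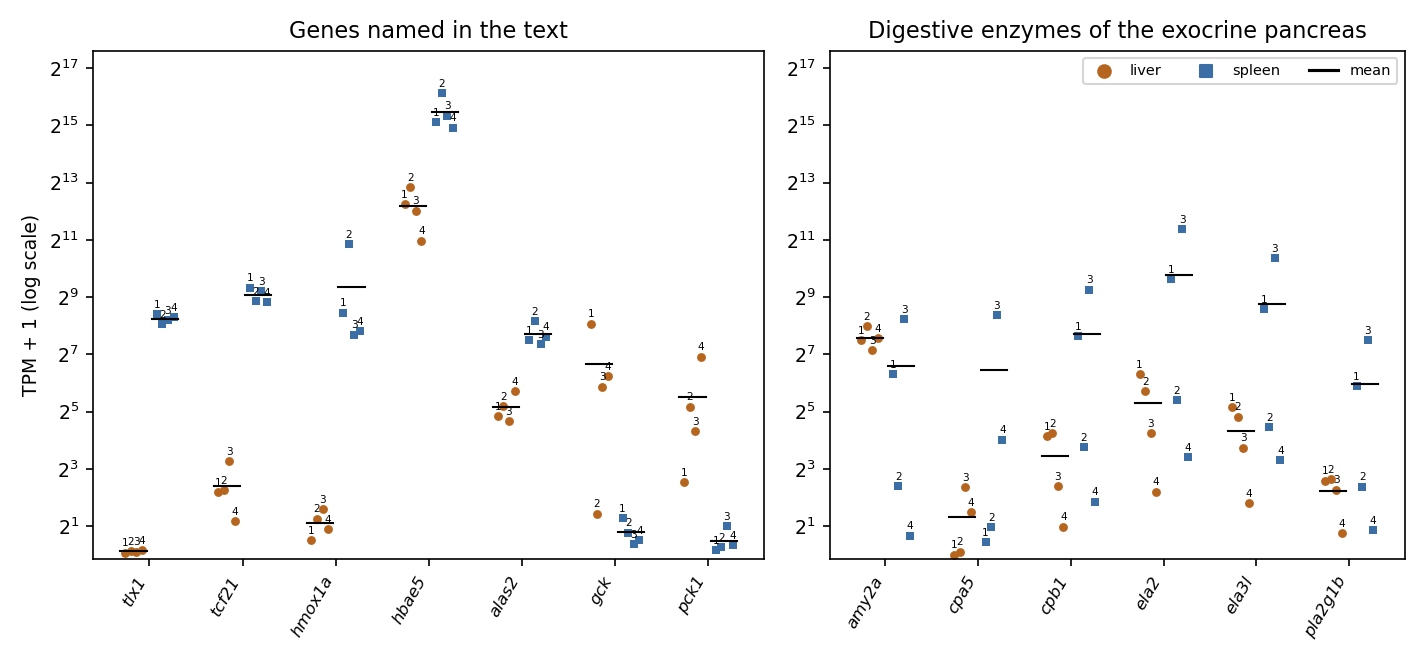
TPM + 1 on a log scale in each liver (circles) and spleen (squares), numbered 1 to 4, with the mean as a bar, for 7 genes described in the text (left) and 6 pancreatic enzyme genes (right). Tlx1 values lie close together within each organ and tcf21 values within the spleens, spleen 2 stands highest for hmox1a and hbae5, and the pancreatic genes spread over a wide range among the spleens.

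Lymphocyte genes were higher in spleen almost throughout. Of 13 T cell genes 12, of 12 B cell genes 11 and of 7 cytotoxic lymphocyte genes 7 were called higher in spleen, and none in liver. The B cell receptor component cd79a was at 81.3, 74.1, 79.0 and 88.5 TPM in spleen and 1.21 to 1.97 TPM in liver (log2 difference -5.01, SE 0.21). The T cell kinase lck and coreceptor cd8a differed by -4.49 and -4.62, and eomesa, a factor of cytotoxic cells, by -4.27. The T cell gene gata3 was not called on both scales, nor was the B cell receptor cd22, at 3.11 TPM in liver and 4.16 TPM in spleen.

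Macrophage genes were called higher in spleen for 11 of 14 members (12 without liver 4). Complement c1qb, which tissue macrophages make, was at 1699, 2553, 1401 and 1808 TPM in spleen and 23.8 to 56.7 TPM in liver. The myeloid factor irf8 and the scavenger receptor marco differed by -4.86 and -4.63. Neutrophil genes were less divided, with 3 of 8 higher in spleen (29.8% of all tested genes were) and 1, padi2, higher in liver. Of 15 neutrophil symbols listed, 8 had no gene of that name, among them mpx, mpo and lyz. Among 12 thrombocyte genes 10 were called higher in spleen, led by the thrombopoietin receptor mpl at 234, 353, 337 and 259 TPM against 1.59 to 3.97 TPM. The thromboxane synthase tbxas1 was the exception, at 20.2 to 57.3 TPM in liver and 5.84 to 8.11 TPM in spleen.

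Genes of blood-forming cells and of dividing cells were also higher in spleen. Of 14 stem and progenitor factors 10 were called (12 without liver 4), with myb and runx3 at 31.3 and 39.2 TPM in spleen and 0.59 and 1.44 TPM in liver. Of 21 cell cycle genes 14 were called (13 without liver 4), with the mitotic kinase cdk1 at 35.1, 25.8, 16.2 and 29.4 TPM in spleen and 0.86 to 2.62 TPM in liver. Antigen presentation genes were called in 10 of 14 cases (11 without liver 4), among them the peptide transporter tap2a and the class II activator ciita, with log2 differences of -3.48 and -3.32. Chemokines and their receptors were called higher in spleen in 7 of 12 cases. The receptors xcr1b.1 and ccr7, which guide dendritic cells and lymphocytes, were at 65.8 to 86.7 and 34.8 to 62.9 TPM in spleen and at most 1.85 and 1.44 TPM in liver. The atypical receptors ackr3a and ackr4a, which take up chemokines without signalling like the others, were higher in liver. Ackr4a stood at 112 to 165 TPM in liver and 4.53 to 15.4 TPM in spleen. The call of ackr3a (0.87) was lost in 6 of the 8 fits that left out 1 library (adjusted p = 0.0532 to 0.0997).

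Vessel lining genes were called higher in spleen for 13 of 24 members (15 without liver 4) and in liver for 1. The sinus endothelium receptor stab2 was at 15.7 to 28.2 TPM in spleen and 0.40 to 3.69 TPM in liver. The member called for liver was prox1a (log2 difference 1.98), which is also in the hepatocyte regulator list. The endothelial genes cdh5 and kdrl were not called (limma adjusted p = 0.0794 and 0.0894). Their log2 differences were -1.17 and -0.93 as deposited and 0.11 and 0.51 after rescaling. Liver 4 held 17.7 and 33.5 TPM of them, more than any spleen (at most 13.1 and 32.1 TPM). The list's median went from -2.11 as deposited to -0.69 after rescaling. Of 5 bile duct markers, 3 were called higher in liver and none in spleen. Those in liver were epcam, tm4sf4 and sox9a, with log2 differences of 3.76, 3.70 and 1.97, all of which are also known in other epithelia. The members anxa4 and alcama lay the other way, with anxa4 at 107 to 135 TPM in spleen and 23.1 to 43.1 TPM in liver, and alcama at means of 21.9 and 6.23 TPM. Both were called for spleen as deposited (adjusted p = 0.000154 and 0.00458) and not after rescaling, and alcama passed on both scales without liver 4 (adjusted p = 0.0235 after rescaling). Ribosomal protein genes gave a contrast of scales. Of 75, 49 were called higher in spleen as deposited and 0 on both scales (1 in liver without liver 4), with a median log2 difference of -0.91 as deposited and 0.63 after rescaling. Oxidative phosphorylation subunits had 1 call on both scales in each direction of 57 (11 in liver without liver 4). That in spleen was ndufa4l2a, an ndufa4-like gene matched by its symbol and not checked to be a subunit, with a log2 difference of -5.14. That in liver, atp5f1c, had a difference of 0.57 and lost its call in 7 of the 8 fits that left out 1 library (adjusted p = 0.0523 to 0.0968) and with the replicate block (adjusted p = 0.0837).

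Some markers of other tissues were present in 1 or both organs, and many could not be looked for. Of 28 exocrine pancreas symbols listed, 22 had no gene of that name, nor had any of 13 endocrine pancreas symbols. The 6 measured enzyme genes of the exocrine pancreas summed to 315, 357, 185 and 198 TPM in the livers and to 1513, 83.9, 5388 and 37.6 TPM in the spleens. None was called as deposited, and the spleens alone spanned the whole range of the livers. With the replicate number as a block, limma called amy2a for liver (adjusted p = 0.0343) and the other 5, ela2, ela3l, cpa5, cpb1 and pla2g1b, for spleen (adjusted p = 0.0224 to 0.0474). These are calls as deposited. With the block after rescaling amy2a passed (adjusted p = 0.0124) and the other 5 did not (adjusted p = 0.0648 to 0.444). Leaving out 1 library, as deposited, gave a call for ela2, ela3l, cpb1 and pla2g1b without spleen 4 (adjusted p = 0.0231 to 0.0283) and for amy2a without spleen 1 (0.0496) or spleen 3 (0.00701). The elastase gene ela2 was at 795, 40.9, 2635 and 9.60 TPM in spleens 1 to 4 and at 79.0, 51.5, 17.9 and 3.61 TPM in livers 1 to 4. The amylase gene amy2a had another pattern, at 180, 254, 142 and 188 TPM in liver and 78.9, 4.22, 301 and 0.59 TPM in spleen. Of the 6 genes, 5 were higher in spleens 1 and 3 than in spleens 2 and 4, and cpa5 was highest in spleen 3. Values of 2 lipid genes were also higher in spleens 1 and 3, lpl at 47.0, 5.22, 60.6 and 5.33 TPM and dgat2 at 23.4, 0.76, 23.3 and 2.33 TPM in spleens 1 to 4. The part of pancreatic tissue in any result was not tested.

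Of 4 gut lining markers, 2 were called higher in liver and 1 in spleen. The intestinal disaccharidase gene si was at 126, 137, 112 and 763 TPM in liver and at most 0.12 TPM in spleen. The intestinal and liver cadherin cdh17 was at 1.45 to 11.8 TPM in liver and listed at 0 in all 4 spleens. The gut fatty acid binding gene fabp2 was at 0.24 to 17.1 TPM in liver and 8.63 to 21.0 TPM in spleen, with no call (adjusted p = 0.107, and 0.0149 without liver 1). The galectin gene lgals2a was the member called for spleen, at 352, 278, 339 and 380 TPM against 6.15, 11.8, 33.5 and 9.14 TPM in liver (log2 difference -4.65, SE 0.44). Of 4 fat cell markers, lpl was called for liver and the fatty acid binding gene fabp4a for spleen, at 777, 576, 754 and 723 TPM against 55.5 to 160 TPM in liver (log2 difference -2.89, SE 0.32). Of 13 kidney tubule symbols listed, 11 had no gene of that name. The 2 tested, cdh16 and slc20a1a, were called higher in liver. The gene slc20a1a was at 35.0 to 80.2 TPM in liver and 11.1 to 26.9 TPM in spleen. The kidney tubule cadherin cdh16 was at 1.51 to 8.46 TPM in liver and at most 0.20 TPM in spleen. Of the skeletal muscle list, the 1 gene found in the table was the myoglobin gene mb, with at most 1.34 TPM in any library. Their part in the differences was not tested.

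The 60 libraries of fish at and after transport hold the same organs from other fish. Calls on both scales with a deposited log2 difference of at least 3 in favour of liver numbered 756 before transport (4.31% of genes tested). As deposited, 635 of them (84.0%) were called the same way in all 8 other pairs of groups. For spleen 1382 of 1476 such genes (8.42% of genes tested) were, which is 93.6%. After rescaling the counts were 709 (93.8%) for liver and 1161 (78.7%) for spleen. Agreement was lower for calls on both scales of any size. As deposited it held for 989 of 1798 genes for liver (55.0%) and 4445 of 5232 for spleen (85.0%). After rescaling it held for 1497 (83.3%) and 2723 (52.0%). In 481 (63.6%) and 962 (65.2%) of the 756 and 1476 genes the 30 livers and 30 spleens did not overlap. Over all tested genes this held for 3.72% and 19.6%. Of the 756 and 1476 genes, 409 and 837 had no gene symbol and are not described. Of the 12 largest differences named by rule in each direction, 10 and 10 had no overlap. The exceptions were hpxa and spp2 for liver and rrad and cxcl12b for spleen. Tlx1 was at 31.2 to 401 TPM in these spleens and at most 1.18 TPM in these livers, and hnf4a at 3.48 to 55.8 TPM in livers and at most 0.77 TPM in spleens.

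In those 60 libraries the organs did not overlap for 13 of 15 lipoprotein, 13 of 15 coagulation, 13 of 19 hepatocyte regulator (12 with liver above and nr1h3 with spleen above), 11 of 13 T cell, 9 of 12 thrombocyte and 12 of 14 progenitor genes. This was so for 10 of 18 plasma carrier genes, 2 of 8 bile acid genes, 3 of 23 red cell genes and 0 of 8 neutrophil genes. Among spleen patterning genes it was so for 2 of 7.

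The organ difference was then compared between fish before transport and at the end of it, with 4 libraries of each organ at each time. Since the libraries before transport enter both values, these are not independent of the results above. As deposited limma called a changed difference for 1090 genes (6.22%), of which 373 (2.13%) moved towards liver and 717 (4.09%) towards spleen. The count and the split depended on the scale, with 1234 (7.04%) and 1076 (6.14%) after rescaling, and 2537 genes in all after quantile normalization. Without liver 2 of the end of transport 719 genes were called. Plasma carrier genes had a smaller liver excess at the end in 10 of 18 cases, lipoprotein genes in 8 of 15 and coagulation genes in 12 of 15, and none had a larger one. After rescaling these counts were 8, 7 and 7, again with none larger.

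The sex steroid carrier shbg was at 3.25 to 3.76 TPM in spleen before and at 66.9, 58.8, 63.4 and 50.0 TPM at the end, while in liver it was at 392 to 587 and 270 to 336 TPM (change -4.35, SE 0.46, adjusted p = 2.50e-09). Hpxa was at 122, 345, 61.2 and 505 TPM in spleen at the end and at 9700 to 15121 TPM in liver. Summed TPM of the 18 plasma carrier genes was 399 to 808 in spleens before transport, 945 to 3288 at the end, and between 76.7 and 5624 over all 30 later spleens. The livers stayed at 29584 to 79403 over the 34 libraries, and the organs did not overlap.

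**Figure D5:**
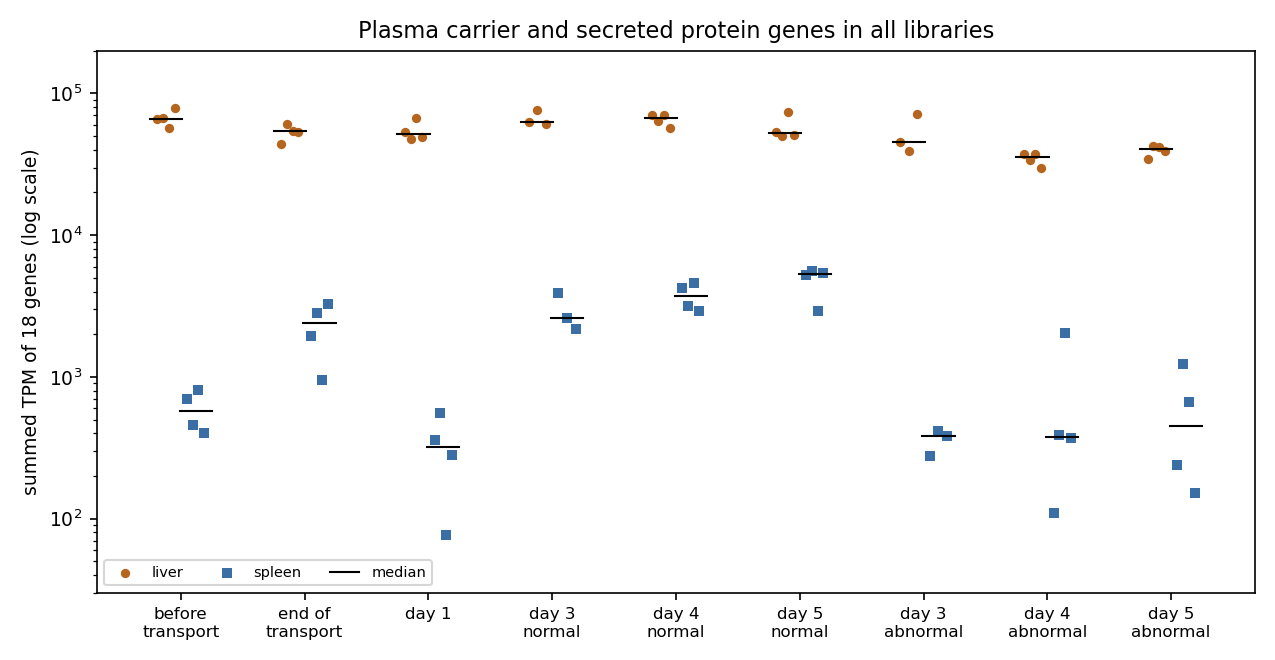
Summed TPM of 18 plasma carrier and secreted protein genes, on a log scale, in every liver (circles) and spleen (squares) of the 9 groups, with medians as bars and the groups before, at the end and after 1 day first, then normal and abnormal fish as the labels name them. Livers lie between 29584 and 79403 TPM and spleens between 76.7 and 5624 TPM, with 399 to 808 TPM in spleens before transport.

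Genes whose difference moved towards liver included rrad, tm7sf2 and epoa. Rrad fell in spleen to 61.1, 7.13, 36.9 and 23.4 TPM, so its log2 difference went from -8.33 to -4.27 (change 4.06, SE 0.75, adjusted p = 0.000268). The sterol reductase gene tm7sf2 was at 1.33 to 6.77 TPM in liver before and 50.0, 118, 18.9 and 59.8 TPM at the end, and at most 1.04 TPM in spleen (change 4.11). Erythropoietin (epoa), the hormone of red cell formation, was at 3.59, 7.81, 3.48 and 3.91 TPM in liver before and at 45.5, 32.3, 36.4 and 86.2 TPM at the end (change 3.81, SE 0.81, adjusted p = 0.00173). In spleen before transport epoa was at 0.98, 11.9, 0.38 and 0.27 TPM, with spleen 2 alone above the livers. The organ difference of epoa before transport was not called (1.08, adjusted p = 0.17) and passed with the replicate number as a block (adjusted p = 0.0423) and without spleen 2 (1.85, adjusted p = 0.000971).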

How the data were processed

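RNA was extracted with TRIzol, depleted of ribosomal RNA and made into directional libraries, per the labels' protocols. The deposited values are TPM per gene, computed by the authors. Reads were handled with fastp 0.23.2 and Salmon 1.10.0, per the submitters' processing notes, and the genome build is not given in the sources used here, nor is the annotation. TPM summed to 995833 to 999254 over the genes of a library. TPM keep no depth, so sequencing depth is unknown and no counting interval is given.

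From these values log2(TPM + 1) was fitted with limma 3.58.1 (R 4.3.3) with a mean-variance trend, for genes at 1 TPM or more in at least 3 of 8 libraries, with Benjamini-Hochberg adjustment over all 17530 genes and a threshold of 0.05. Log2 differences on this scale understate those of low genes. A gene is called on both scales when it also passes with the same sign after median-of-ratios rescaling, a rule chosen after the data were seen. Library summaries were compared by two-sided exact permutation tests. The limma fit was also run on simulated data with independent noise. Those data held no shift of the median between organs and no library standing apart, so that run does not bear on either feature.

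Gene lists were matched by symbol with copy suffixes, leaving out 3 matches to other genes. Many symbols had no gene of that name, so that counts cover only the members found. These were 16 of 32 plasma carriers (alb and ttr among them), 12 of 20 bile acid genes and 12 of 24 T cell genes, for example. The members and lists were chosen with earlier results of these data known. Genes are named from a rule: the 12 largest differences per direction with at least 20 TPM and no overlap, the 8 most abundant per organ, 4 and 2 members per list for each direction, all hepatocyte regulators, spleen patterning genes and isoenzymes, 6 opposite paralogue pairs, 5 changes per direction at the end of transport, and defining markers of other cells. Members of lists outside this rule, among them igfbp2a, igf1, igfals, prodha, otc, ass1, asl, gata3, cd22 and the pancreatic enzymes, and genes listed at 0, were picked after their values were seen.

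The replicate numbers come from the sample titles. Deviations from the organ means correlated over genes at 0.338, 0.162, 0.259 and 0.301 between liver and spleen of the same number. Between different numbers they correlated at -0.23 to 0.0958. Deviations from a mean cancel out within an organ, so positive values for the same number lower the others by construction. On these values the numbers were taken as pairs in the fit with a replicate block. Alternatives were other pseudocounts, filters, scalings, fits and each library left out. Promoter and protein sequences were not used here, and not all of the 221 genes that the rule names are described.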

Additional observations from a re-analysis of the deposited data

Results flagged for a closer look

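In 18 values a single library of a group of 4 lay further from the other 3 than Dixon's 95% limit allows, and chance alone does so in about 1 in 20 groups. For 138 of the genes described, 14 of 128 groups of livers (10.9%) and 3 of 111 groups of spleens (2.7%) were of this kind. Groups averaging under 1 TPM were left out. Over all tested genes treated alike the shares were 9.56% in liver and 4.85% in spleen, and liver 4 alone was that library for 8.2% of genes. Among the 18 values it was so in 12. Its values were high for cps1 (11.8 TPM), dgat2 (178 TPM), fn1b (1479 TPM), nr1i2 (7.85 TPM), si (763 TPM), stab2 (3.69 TPM), tat (721 TPM) and tfr2 (272 TPM). They were low for apoa2 (30494 TPM), saa and xbp1 (both listed at 0) and for the share of TPM from long noncoding genes (1.40%). The other libraries that stood apart were liver 1 for ccr7 (0.60 TPM, low), liver 2 for epoa (7.81 TPM, high) and tagln (14.7 TPM, low), spleen 2 for prodha (7.37 TPM, high) and spleen 4 for pygmb (41.0 TPM, high) and xbp1 (listed at 0).

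The difference between the organs itself changed at the end of transport, by limma's interaction term as deposited, for 33 of these 138 genes. Over all tested genes it changed for 6.22%. Some of the 33 were named for the size of this change, so their count cannot be set against that share. Values are given for 8 of the 33, which are among the 10 largest changes that the naming rule takes. The difference became smaller by the following log2 changes: hpxa -4.47, fetub -4.42, ahsg2 -4.70, shbg -4.35 and apoa2 -4.19. It moved towards liver for rrad (4.06), tm7sf2 (4.11) and epoa (3.81). The libraries before transport enter these changes too.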

How the results depend on the processing

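Of 2884 values recomputed for the same 138 genes under the alternatives, 2751 kept their direction and their side of the threshold, and 22 changed sign. A few genes described above are not among the 138. As deposited 1798 genes were called for liver and 11247 for spleen. Median-of-ratios rescaling gave 4582 and 5232, quantile normalization 4233 and 5859, and the replicate block with median-of-ratios rescaling 4603 and 5422. A test against a log2 difference of 1 gave 6216 genes (1153 and 5063). Leaving out each library in turn gave 11764 to 15314 genes, with 1675 to 1881 for liver and 10017 to 13433 for spleen. The replicate block alone called 13427 genes in place of 13045. Among the 138 genes it changed the call of atp5f1c, epoa, ela2, cpa5, amy2a, ela3l, cpb1, pla2g1b, ldhba and xbp1, as given with their values, and no other call. Opposite paralogue pairs fell from 49 to 20 when called on both scales. Of the 1798 liver calls as deposited, 989 (55.0%) were called the same way in all 8 other pairs of groups, and 1497 (83.3%) after rescaling. Of the 11247 spleen calls as deposited, 7727 (68.7%) were so called, and 2999 (26.7%) after rescaling. Genes with a changed organ difference at the end of transport went from 1090 to 2310 after rescaling and 2537 after quantile normalization, and ranged from 719 (without liver 2 of the end of transport) to 1347 when each library was left out. The cause of these shifts was not tested.

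Signs changed for 8 of the 138 genes. The vessel lining genes cdh5 and kdrl, which are not among the 138, also changed sign after rescaling, from -1.17 to 0.11 and from -0.93 to 0.51. After rescaling, with or without the replicate block, the log2 differences were 0.58 for asl, 0.65 for cd22, 0.04 for fabp2, 1.19 for hhex, 1.01 for igfbp2a, 0.79 for wt1b and 0.40 for xbp1. After quantile normalization they were 0.02 for asl, 0.68 for cd22, 0.78 for hhex and 0.58 for wt1b. That of xbp1 was 0.40 with array weights and ranged from -2.72 to 0.53 (without liver 4) when each library was left out. That of pparab was -0.68 with array weights and ranged from -0.32 (without liver 4) to 0.66 when each library was left out.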

Other observations

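Some genes were listed at exactly 0 in 1 liver and 1 spleen while all 6 other libraries held at least 1 TPM. Between liver and spleen of the same replicate number there were 8, 4, 4 and 12 such genes, 28 in all. Over the 12 other pairings of a liver with a spleen there were 3 in all, with at most 1 in a pairing. These genes were looked for after the values were seen, and an exact 0 can be a failed estimate.

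With number 4, serum amyloid A (saa), an acute phase protein gene, was at 4499, 2161, 5260 and 0 TPM in the livers and at 2.22 to 30.3 TPM in spleens 1 to 3 and 0 in spleen 4. The secretory cell factor xbp1 was at 62.5, 49.4, 62.7 and 0 TPM in liver and 139, 146, 134 and 0 TPM in spleen. Lactate dehydrogenase ldhba was listed at 0 in liver 4 and spleen 4 as well, with 8.38 to 18.9 TPM in the other livers and 52.4 to 146 TPM in the other spleens. With number 1, phyh, a peroxisomal enzyme gene, was listed at 0 in both organs and stood at 40.0, 57.9 and 20.1 TPM in livers 2 to 4. Neither xbp1 nor ldhba was called between the organs by limma (log2 differences -0.94 and -1.84, adjusted p = 0.653 and 0.285), and both passed for spleen with the replicate block (adjusted p = 0.0271 and 0.00898). The calls of saa and phyh for liver (adjusted p = 0.0488 and 0.0476) were each lost in 7 of the 8 fits that left out 1 library. The zeros entered these fits as values of 0. Only 3 libraries of each organ held a value above 0 for these genes. Zeros also occurred among the 30 livers and 30 spleens of the other groups. There ldhba was listed at 0 in 10 livers and 12 spleens, and phyh in 11 and 7. For xbp1 it was 2 and 1, and for saa 0 and 3.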
